A study of Mus musculus with 12 samples.

Results

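The 7 miRNAs mmu-miR-10a-5p, mmu-miR-10b-5p, mmu-miR-99a-5p, mmu-miR-99b-5p, mmu-miR-100-5p, mmu-miR-125a-5p and mmu-miR-125b-5p were followed in small RNA libraries of exosomes, the small vesicles that cells release, from mouse ovarian granulosa cells. They were taken by name from the 637 miRNA entries of the count tables, and all 7 were present with at least 357 counts in each of the 12 libraries. The 4 groups held 3 libraries each and came from cells kept for 24 h in medium free of exosomes and then cultured for 48 h. CON cells received no agent. FAC cells received 100 μM ferric citrate, an iron salt. DFO cells received 100 μM ferric citrate and 100 μM deferoxamine mesylate, an iron chelator. VE cells received 100 μM ferric citrate and 200 μM VITE, an antioxidant. Iron was thus given in FAC, DFO and VE, and a chelator in DFO. The labels name no strain, allele or age, and they do not say whether libraries of a group came from separate cultures. The p-values therefore rest on a spread between libraries that may be technical. In edgeR, the main test below, that spread is drawn also from other entries and is not that of each miRNA alone.

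A miRNA is a short RNA that lowers the output of messenger RNAs paired with its seed, bases 2 to 8 from the 5′ end. The miR-10, miR-99 and miR-100 sequences descend from an old animal miRNA family, and the mouse genes of miR-10a and miR-10b lie in the Hox gene clusters, some of whose messages they repress. miR-99 and miR-100 are known repressors of Mtor and Igf1r, which drive growth, and miR-125a and miR-125b are the mammalian counterparts of worm lin-4 and act on Lin28a and other messages. Most of the miR-99, miR-100 and miR-125 genes sit in short clusters with a let-7 gene between them, and miR-10a and miR-10b have been linked to the growth of granulosa cells.

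The mature sequences are given because the 7 miRNAs fall into 3 seed groups and because some differ by 1 base. They were read from RefSeq (GRCm38.p6), where all 7 were found, and the capitals mark the seed.
miR-10a-5p: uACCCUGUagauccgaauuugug
miR-10b-5p: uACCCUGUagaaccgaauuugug
miR-99a-5p: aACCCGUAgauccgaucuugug
miR-99b-5p: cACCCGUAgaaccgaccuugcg
miR-100-5p: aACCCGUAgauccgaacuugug
miR-125a-5p: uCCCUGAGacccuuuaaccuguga
miR-125b-5p: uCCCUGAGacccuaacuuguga

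miR-10a and miR-10b shared 1 seed, miR-99a, miR-99b and miR-100 another, and miR-125a and miR-125b the third. Counted from the 5′ end, miR-10a and miR-10b differed only by U12A, and miR-99a and miR-100 only by U16A. miR-99a and miR-99b differed at 4 positions, A1C, U11A, U16C and U21C. The handling of reads that match such pairs is not given in the sources used here, and the split of counts between miR-10a and miR-10b and between miR-99a and miR-100 is therefore uncertain. Of the other entries with counts, mmu-miR-351-5p and mmu-miR-6367 carried the seed of miR-125.

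According to RefSeq (GRCm38.p6), miR-10a is encoded within Hoxb3 on chromosome 11 and miR-10b within Hoxd3 and Hoxd4 on chromosome 2. The genes of miR-99b, let-7e and miR-125a lie together within Spaca6 on chromosome 17, and those of miR-99a, let-7c-1 and miR-125b-2 lie together on chromosome 16. The genes of miR-100, let-7a-2 and miR-125b-1 lie within Mir100hg on chromosome 9. miR-125b-5p, let-7a-5p and let-7c-5p each come from more than 1 gene, so their counts do not belong to 1 cluster.

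The miRNA counts of a library summed to between 452021 in CON library 2 and 7565362 in FAC library 1, and the library read totals behind the deposited RPM values (reads per 1000000 reads) lay between 22631206 and 24845945. Of the library read total, 3.28% ± 1.55 (SD, n = 3) fell on miRNAs in CON, 24.7% ± 4.96 in FAC, 12.6% ± 7.16 in DFO and 11.97% ± 2.69 in VE. Levels are therefore given in normalized CPM, counts per 1000000 miRNA counts after edgeR's TMM scaling, which compares a miRNA with the other miRNAs of its library, and values relative to all reads are given separately. Of 8 miRNAs listed as linked to granulosa cells, 6 were in the tables and summed to between 0.696% and 1.16% of the miRNA counts in every group. The liver miRNA mmu-miR-122-5p made up 4.77% to 17.1% in all 12 libraries. The joined entry of miR-486a-5p and miR-486b-5p, miRNAs of red blood cells, lay between 2.68% and 5.46% in CON, between 0.779% and 9.68% in FAC, between 1.76% and 8.26% in DFO and between 8.25% and 16.8% in VE, while the red cell miRNA mmu-miR-451a was at most 0.342%. The 5 stromal entries summed to 2.82% to 11.01% in CON, 3.62% to 7.53% in FAC, 2.28% to 4.27% in DFO and 1.31% to 1.88% in VE. The immune, endothelial and epithelial lists summed to at most 0.0320%, 0.0156% and 0.0227% of the miRNA counts in CON and at most 0.0357%, 0.00575% and 0.00209% elsewhere. The source of these miRNAs, and their part in the results below, was not tested. In such bulk libraries, fewer vesicles of a kind and fewer copies in each vesicle cannot be told apart.

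The 7 miRNAs were abundant. Together they held 17.8%, 16.0% and 12.1% of the miRNA counts in CON libraries 1 to 3, 30.2%, 35.9% and 20.8% in FAC, 13.6%, 20.5% and 15.2% in DFO, and 21.4%, 21.7% and 20.5% in VE. The mean was 15.3% ± 2.91 (SD, n = 3) in CON, 29.0% ± 7.65 in FAC, 16.5% ± 3.61 in DFO and 21.2% ± 0.651 in VE, without a test. All FAC libraries lay above all CON and DFO libraries, and FAC library 3 lay below VE libraries 1 and 2. miR-99a, miR-99b and miR-100 supplied 21.6% ± 5.74 in FAC and 9.79% ± 1.29 in CON, miR-10a and miR-10b 5.93% ± 1.69 and 4.41% ± 1.93, and miR-125a and miR-125b 1.47% ± 0.723 and 1.12% ± 0.0463.

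**Figure D1:**
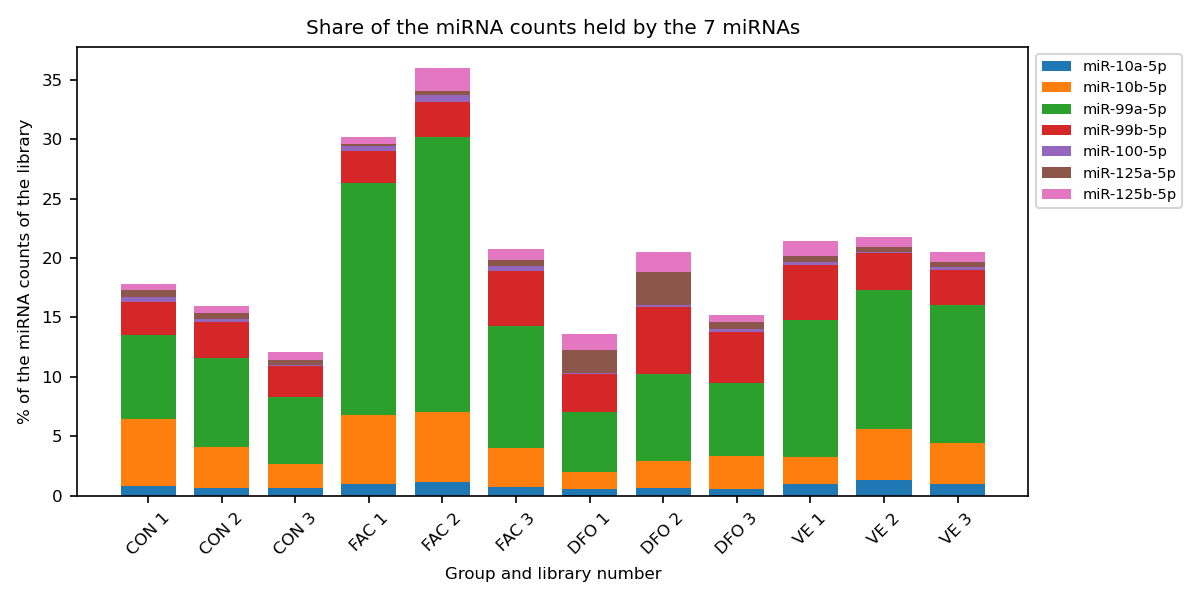
Percent of the miRNA counts of each library (y axis) held by each of the 7 miRNAs, stacked, for libraries 1 to 3 of each group (x axis). miR-99a-5p is the largest segment in every library, and the total is highest in FAC library 2, at 35.9%.

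Among mature miRNAs of 22 to 24 bases, counts can be set side by side without a length correction, although capture differs between sequences. miR-99a-5p ranked first of the 7 in every library and between first and position 7 of all entries. miR-10b-5p and miR-99b-5p followed in most libraries, at ranks 5 to 12 and 5 to 11 of all entries, and changed places between libraries. miR-10a-5p and miR-125b-5p came at ranks 12 to 20 and 10 to 21, with overlapping levels. miR-125a-5p changed its place among the 7 most, between the third and the seventh, at ranks 10 to 36 of all entries. miR-100-5p was the lowest or next to lowest of the 7 in each library, with the widest range over all entries, at ranks 18 to 61.

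**Figure D2:**
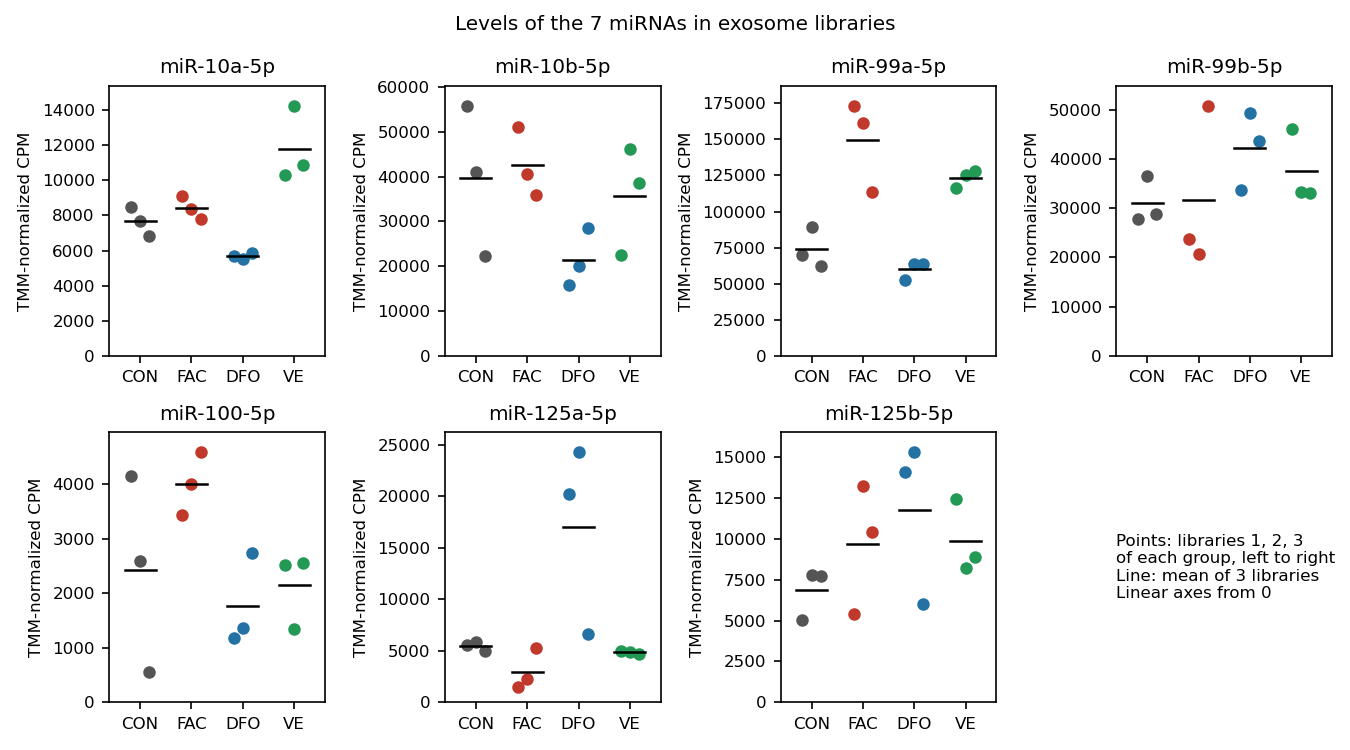
TMM-normalized CPM (y axes, linear from 0) of each miRNA in libraries 1, 2 and 3 of each group (points from left to right), with the mean of the 3 libraries as a line. miR-99a-5p is at 113504 CPM or more in all FAC and VE libraries and at 89029 CPM or less in all CON and DFO libraries, and miR-125a-5p is highest in DFO libraries 1 and 2.

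Within the miRNA counts, miR-99a-5p had its higher levels in the groups that received iron without the chelator. Its level was 69958, 89029 and 62217 CPM in CON libraries 1 to 3 and 173153, 161332 and 113504 CPM in FAC. It was 52295, 63750 and 63851 CPM in DFO and 116355, 125268 and 128318 CPM in VE. The 6 libraries of FAC and VE all lay above the 6 libraries of CON and DFO, whereas in RPM DFO library 2 was above VE libraries 1 and 2. On the scale of log2 fold changes in edgeR after TMM scaling, FAC exceeded DFO by 1.32 (standard error 0.36, 2.49-fold, adjusted p = 0.0283). With that scaling it was the only one of the 6 comparisons of miR-99a-5p with an adjusted p under 0.05. FAC exceeded CON by 1.02 (standard error 0.36, 2.03-fold, unadjusted p = 0.00443, adjusted p = 0.135) and VE exceeded CON by 0.74 (1.67-fold, unadjusted p = 0.0372, adjusted p = 0.460). DFO against VE gave -1.04 (unadjusted p = 0.00366, adjusted p = 0.154). Between FAC and VE the difference was 0.28 (95% interval -0.42 to 0.97), and between DFO and CON it was -0.30 (95% interval -0.99 to 0.40). Among the 4 groups together, the adjusted p was 0.0155. The call between FAC and DFO was lost with RLE size factors, the filterByExpr filter, the replicate block, the compared groups alone or the counts of miR-100 added (adjusted p from 0.0615 to 0.197), and without FAC library 1 or 2 or any 1 DFO library (adjusted p from 0.0664 to 0.166). Without FAC library 3, FAC exceeded CON with an adjusted p of 0.00252 in edgeR (0.00252 to 0.502 with each library left out in turn).

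let-7c-5p, a member of the let-7 family that limits growth and whose gene Mirlet7c-1 is next to that of miR-99a, went the other way within the miRNA counts. It was the most abundant of the let-7 cluster partners, at 6.83% to 32.5% of the miRNA counts. Its level was 148689, 219206 and 229384 CPM in CON, 74083, 90070 and 121407 CPM in FAC, 241146, 284025 and 157888 CPM in DFO, and 68721, 110258 and 113556 CPM in VE. FAC was below DFO by a log2 fold change of -1.26 (standard error 0.34, adjusted p = 0.0271 in edgeR) and DFO above VE by 1.22 (adjusted p = 0.0320). Both calls were lost with library read totals as library sizes, where FAC against DFO was -0.39 (adjusted p = 0.689) and DFO against VE 1.60 (adjusted p = 0.310), and in limma on RPM values FAC against DFO was 0.049 (adjusted p = 0.995 and 0.986) and DFO against VE 1.25 (adjusted p = 0.687 and 0.521). Both were also lost with the filterByExpr filter (adjusted p = 0.0759 and 0.168) and with the counts of near-identical miRNAs summed (0.0662 and 0.0987), and FAC against DFO with the replicate block (0.0615) and in the compared groups alone (0.132). With 1 library left out, FAC against DFO was lost without FAC library 2 or DFO library 1 or 2 (adjusted p from 0.0696 to 0.184), and DFO against VE without DFO library 1 or 2 or any 1 VE library (adjusted p from 0.114 to 0.348). Against CON the values were -1.06 for FAC (adjusted p = 0.0966) and -1.03 for VE (adjusted p = 0.0860), with no overlap of libraries in either, and with library read totals these became 2.19 and 0.98. The ratio of let-7c-5p to miR-99a-5p counts does not depend on how a library is scaled. It was 2.13, 2.46 and 3.69 in CON, 0.428, 0.558 and 1.07 in FAC, 4.61, 4.46 and 2.47 in DFO, and 0.591, 0.880 and 0.885 in VE. The lowest of the 6 CON and DFO libraries, at 2.13, lay above the highest of the 6 FAC and VE libraries, at 1.07. This is described without a test because the ratio was chosen after these values were known. mmu-let-7c-1-3p, the 3p arm named for Mirlet7c-1, went the same way as miR-99a-5p at far lower levels. Its mean was 35.5 CPM in CON, 218 CPM in FAC, 10.3 CPM in DFO and 106 CPM in VE. All its FAC and VE libraries lay above all its CON and DFO libraries. FAC against CON gave a log2 fold change of 2.61 (adjusted p = 0.607 in edgeR), and the lowest DFO library held 1 count.

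**Figure D3:**
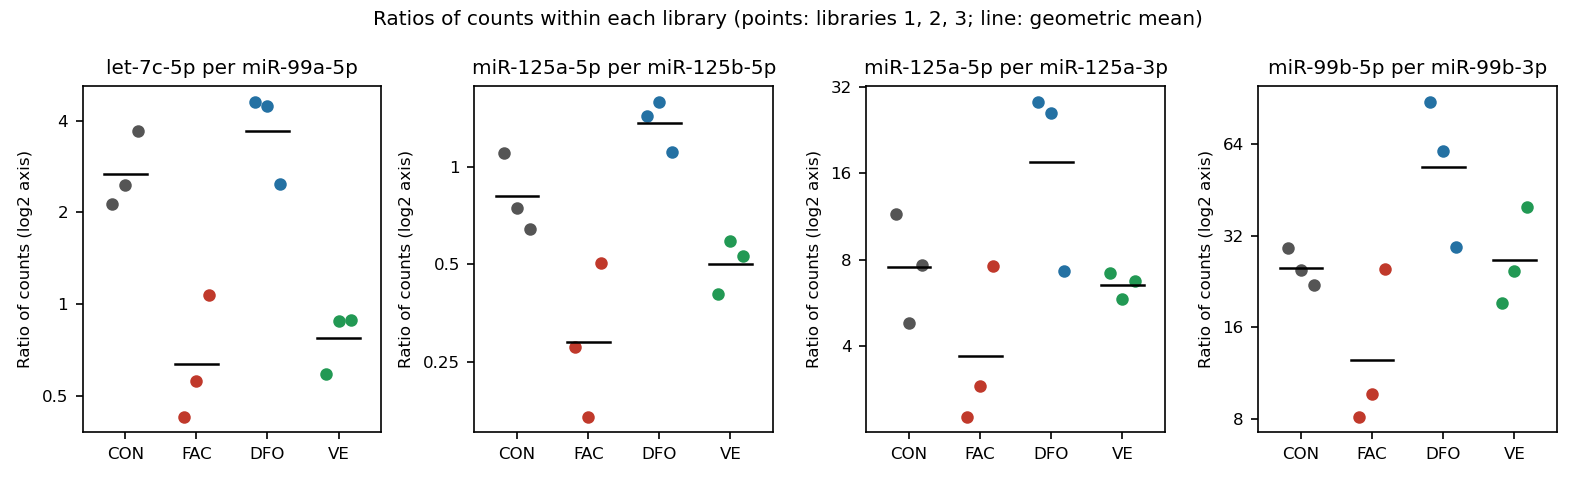
Ratio of the counts of 2 miRNAs within each library (y axes, log2 scale) for libraries 1, 2 and 3 of each group (points) with the geometric mean of 3 libraries (line). The ratio of let-7c-5p to miR-99a-5p separates CON and DFO from FAC and VE, and both 5p to 3p ratios are highest in DFO libraries 1 and 2 and lowest in FAC libraries 1 and 2.

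miR-125a-5p was the other miRNA of the 7 that differed among the groups after TMM scaling. Its level was 5578, 5842 and 4981 CPM in CON libraries 1 to 3 and 5040, 4851 and 4713 CPM in VE. It was 1495, 2241 and 5265 CPM in FAC and 20231, 24262 and 6662 CPM in DFO. All DFO libraries lay above all other libraries, but DFO library 3 and FAC library 3 were close to the CON range while the others of their groups were far from it. The joined miR-486 entry of red blood cells was also highest in library 3 of both groups. It held 0.779%, 1.88% and 9.68% of the miRNA counts in FAC libraries 1 to 3 and 3.50%, 1.76% and 8.26% in DFO. In CON it held 2.68% to 5.46%, a range that includes DFO library 1. In VE it held 8.25% to 16.8%, while miR-125a-5p was near its CON levels there. The part of the miR-486 entry in the miR-125a-5p levels was not tested. FAC was below DFO by a log2 fold change of -2.51 (standard error 0.54, 5.68-fold, adjusted p = 0.000724 in edgeR), and DFO was above VE by 1.81 (standard error 0.53, 3.50-fold, adjusted p = 0.0438). These standard errors draw also on other entries, while miR-125a-5p itself spanned a 3.52-fold range in FAC and a 3.64-fold range in DFO. DFO exceeded CON by 1.64 (unadjusted p = 0.00185, adjusted p = 0.220), and FAC against CON was -0.87 (95% interval -1.88 to 0.15, adjusted p = 0.607), which became 2.16 with library read totals as library sizes. On that scale DFO exceeded CON 16.3-fold, with an adjusted p under 0.05 in edgeR. VE against CON was -0.17 (95% interval -1.17 to 0.84). Among the 4 groups the adjusted p was 0.000229. Between FAC and DFO the adjusted p was 0.0637 without DFO library 2 and otherwise as low as 5.17e-07 with 1 library left out, and it was 0.229 with library read totals as library sizes and 0.315 and 0.330 in limma on RPM values. The call between DFO and VE was lost with the replicate block (adjusted p = 0.0710), with the filterByExpr filter (0.0959), with library read totals (0.205), in limma on RPM values (0.687 and 0.709) and without DFO library 1 or 2 or any 1 VE library (adjusted p from 0.143 to 0.414).

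For the partner arm of the miR-125a hairpin, no such difference was detected. The hairpin of Mir125a in RefSeq (GRCm38.p6) is shown because its 5p and 3p arms, in capitals, come from 1 precursor.
Mir125a: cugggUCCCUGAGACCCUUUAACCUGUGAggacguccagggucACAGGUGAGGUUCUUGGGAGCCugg
mmu-miR-125a-3p was at 482 to 1211 CPM in CON, 657 to 771 CPM in FAC, 714 to 937 CPM in DFO and 700 to 834 CPM in VE, with overlapping libraries in all 6 comparisons. FAC against DFO gave a log2 fold change of -0.27 (standard error 0.79, adjusted p = 0.883 in edgeR). The count of miR-125a-5p per count of miR-125a-3p was 11.6, 4.82 and 7.69 in CON, 7.16, 5.82 and 6.74 in VE, 2.27, 2.90 and 7.62 in FAC, and 28.3, 25.9 and 7.31 in DFO. Libraries 1 and 2 of FAC were below and libraries 1 and 2 of DFO above all others, and the third library of each fell among CON and VE. The same was seen for miR-99b, whose gene is in the same cluster. Its 5p to 3p ratio was 29.1, 24.8 and 22.0 in CON, 19.3, 24.5 and 39.9 in VE, 8.15, 9.66 and 24.9 in FAC, and 88.2, 60.7 and 29.5 in DFO. The miRNA share of the reads was 12.5%, 19.9% and 5.53% in DFO libraries 1 to 3 and 30.4%, 21.6% and 22.1% in FAC. Among the DFO libraries, both ratios and the share were lowest in library 3. Library 1 had higher ratios and a lower share than library 2, and the part of that share in the ratios was not tested. The arms of miR-125b did not follow this pattern. The count of miR-125b-1-3p per count of miR-125b-5p was lowest in FAC libraries 1 and 2, at 0.0827 and 0.0117, so that 5p to 3p was highest there. It was 0.250, 0.216 and 0.738 in DFO.

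miR-99b-5p itself had no adjusted p under 0.05 in any comparison in edgeR after TMM scaling. With library read totals as library sizes it had one in each of FAC, DFO and VE against CON. It was at 27854, 36466 and 28884 CPM in CON, 23694, 20729 and 50764 CPM in FAC, 33781, 49318 and 43580 CPM in DFO, and 46169, 33304 and 33118 CPM in VE, and libraries of every pair of groups overlapped. Its 6 log2 fold changes lay between -0.41 and 0.44, and the 95% interval of FAC against CON was -0.78 to 0.84. Within its cluster, miR-99b-5p outnumbered miR-125a-5p by 4.99 to 6.24 in CON, 9.25 to 15.8 in FAC, 1.67 to 6.54 in DFO and 6.86 to 9.16 in VE, so the levels of these neighbours did not stay in 1 proportion. let-7e-5p, the third miRNA of that cluster, was at 1286, 4312 and 6735 CPM in CON, 641, 608 and 1280 CPM in FAC, 5621, 3792 and 1665 CPM in DFO, and 949, 1792 and 1699 CPM in VE. All FAC libraries of let-7e-5p lay below all CON libraries, with a log2 fold change of -2.29 (standard error 0.65, adjusted p = 0.0762 in edgeR), which became 1.102 with library read totals as library sizes.

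After TMM scaling, miR-125b-5p had no adjusted p under 0.05 in any comparison in edgeR. With library read totals as library sizes it had one in each of FAC, DFO and VE against CON. It was at 5039, 7798 and 7727 CPM in CON, 5380, 13233 and 10426 CPM in FAC, 14049, 15268 and 6004 CPM in DFO, and 12411, 8214 and 8893 CPM in VE. All VE libraries lay above all CON libraries (log2 fold change 0.52, 95% interval -0.46 to 1.499, adjusted p = 0.671), and the other 5 pairs of groups overlapped. The ratio of miR-125a-5p to miR-125b-5p, which share a seed, was 1.11, 0.749 and 0.645 in CON, 0.278, 0.169 and 0.505 in FAC, 1.44, 1.59 and 1.11 in DFO, and 0.406, 0.591 and 0.530 in VE. All DFO libraries were above all other libraries, DFO library 3 and CON library 1 being nearly equal at 1.11. mmu-miR-125b-1-3p, the 3p arm of 1 of the miR-125b hairpins and the most abundant partner arm, differed among the 4 groups with an adjusted p of 0.0120 in edgeR. It was at 6145, 4228 and 2620 CPM in CON, 445, 154 and 2196 CPM in FAC, 3512, 3291 and 4429 CPM in DFO, and 1398, 948 and 1178 CPM in VE. All CON and DFO libraries lay above all FAC and VE libraries. FAC against CON gave a log2 fold change of -2.22 (standard error 0.65, adjusted p = 0.0762) and 0.52 with library read totals as library sizes. For each count of miR-125b-5p there were 0.339 to 1.22 counts of this arm in CON and 0.0117 to 0.211 in FAC. mmu-miR-125b-2-3p, the 3p arm of the other miR-125b hairpin, went the other way at far lower levels. Its mean was 15.3 CPM in CON, 100 CPM in FAC, 17.9 CPM in DFO and 83.5 CPM in VE. FAC against CON gave 2.69 for that arm (adjusted p = 0.607 in edgeR), and the lowest CON library held 1 count.

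miR-10a-5p was the steadiest of the 7 within groups. Over the 12 libraries its CPM spanned 2.58-fold, against 2.45-fold for miR-99b-5p. miR-10a-5p was at 8505, 7706 and 6799 CPM in CON, 9087, 8371 and 7820 CPM in FAC, 5665, 5505 and 5851 CPM in DFO, and 10286, 14229 and 10882 CPM in VE. All DFO libraries lay below and all VE libraries above those of CON and FAC, which overlapped. The SD of its log2 CPM within groups was 0.16, the smallest among the 102 entries with at least 10 counts in every library, whose median was 0.77. Standard errors in edgeR draw also on the spread of other entries. The 0.51 given next therefore does not measure the spread of miR-10a-5p alone. VE exceeded DFO by a factor of 2.08 (log2 fold change of DFO against VE -1.06, standard error 0.51, unadjusted p = 0.0391, adjusted p = 0.391 in edgeR), and DESeq2 gave an adjusted p of 0.0265 for this comparison (0.0265 to 0.767 over the alternatives).

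miR-10b-5p, 1 base apart from it, varied more. It was at 55728, 41010 and 22357 CPM in CON, 50955, 40621 and 35966 CPM in FAC, 15778, 20149 and 28421 CPM in DFO, and 22395, 46032 and 38657 CPM in VE. All FAC libraries lay above all DFO libraries, with a log2 fold change of 0.99 (standard error 0.42, 1.98-fold, unadjusted p = 0.0181, adjusted p = 0.248 in edgeR). With library read totals as library sizes FAC exceeded DFO 4.68-fold, with an adjusted p under 0.05 in edgeR (0.0303 to 0.433 over the alternatives). DFO against CON gave -0.89 (unadjusted p = 0.0331, adjusted p = 0.625), with overlapping libraries. miR-10b-5p outnumbered miR-10a-5p by 2.18 to 6.55 in the 12 libraries.

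miR-100-5p was the least abundant. It was at 4155, 2583 and 561 CPM in CON, 3426, 4004 and 4577 CPM in FAC, 1186, 1368 and 2731 CPM in DFO, and 2525, 1344 and 2562 CPM in VE. All FAC libraries lay above all DFO and VE libraries, with log2 fold changes of 1.18 (95% interval -0.04 to 2.41, adjusted p = 0.420 in edgeR) and 0.90 (95% interval -0.32 to 2.12, adjusted p = 0.521). CON spanned a 7.40-fold range and overlapped every other group. miR-99a-5p outnumbered miR-100-5p by 16.8 to 111, so reads of miR-99a-5p counted as miR-100-5p, if any, would weigh on the lower value.

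Counted over the 7 miRNAs, an adjusted p under 0.05 in edgeR was reached by 0 in FAC against CON, where 0.183% of all 547 tested entries reached it, by 2 in FAC against DFO (0.914% of all entries) and by 0 in FAC against VE (0.366%). It was reached by 0 in DFO against CON (0.548%), 0 in VE against CON (2.01%) and 1 in DFO against VE (1.46%). Among the 4 groups together, 2 of the 7 reached it against 4.57% of all entries. In DESeq2, 0 of the 7 were called in FAC against CON (3.84% of all entries), 2 in FAC against DFO (7.86%), 0 in FAC against VE (3.47%), 0 in DFO against CON (2.38%), 0 in VE against CON (3.47%) and 2 in DFO against VE (6.03%), where 172 to 269 of the 547 entries received no adjusted p. At a fold change of at least 1.5 and an unadjusted p under 0.05, the threshold used in the study, 1 of the 7 passed in FAC against CON (9.51% of all entries), 3 in FAC against DFO (12.2%), 0 in FAC against VE (9.32%), 2 in DFO against CON (7.68%), 1 in VE against CON (10.4%) and 3 in DFO against VE (11.9%). The counts at an unadjusted p under 0.05 alone were the same.

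The libraries of the 2 groups did not overlap for 1 of the 7 in FAC against CON (13.3% of all entries), for 5 in FAC against DFO (16.6%), for 2 in FAC against VE (14.6%), for 2 in DFO against CON (6.03%), for 3 in VE against CON (13.0%) and for 3 in DFO against VE (13.7%). In FAC against DFO, miR-10a, miR-10b, miR-99a and miR-100 were the 4 with all FAC libraries above and miR-125a the 1 with all below. The median log2 fold change of the 7 was 0.14 in FAC against CON, 0.57 in FAC against DFO, -0.02 in FAC against VE, -0.30 in DFO against CON, 0.27 in VE against CON and -0.28 in DFO against VE. Over the 102 entries with at least 10 counts in every library, it was -0.15, 0.30, 0.01, -0.28, -0.01 and -0.22 in the same order. The comparisons share groups and are not independent.

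Relative to all reads of a library, the picture in FAC against CON was different. When the library read totals served as library sizes, all 7 were higher in FAC, by 4.47-fold for miR-125a-5p to 20.0-fold for miR-99a-5p, and all 7 had an adjusted p under 0.05 in edgeR, where 16.3% of all entries had one. The median log2 fold change of the 102 frequent entries was itself 3.08 on this scale and that of the 7 was 3.32. In RPM, miR-99a-5p was at 3524, 1494 and 1601 in CON, 59504, 50107 and 22795 in FAC, 6227, 14475 and 3427 in DFO, and 10640, 14164 and 16844 in VE. For all 7 miRNAs the RPM of every FAC library exceeded that of every CON library, while in CPM the libraries of FAC and CON overlapped for 6 of the 7. The share of all entries that separated in this way in RPM was not worked out, so the count in RPM cannot be set against the other entries. On the scale of library read totals, 2 of the 7 were called in FAC against DFO (2.74% of all entries), 0 in FAC against VE (1.1%), 3 in DFO against CON (3.11%), 4 in VE against CON (2.93%) and 0 in DFO against VE (0% of all entries). The 2 in FAC against DFO were miR-99a-5p and miR-10b-5p, without miR-125a-5p. The 3 in DFO against CON were miR-99b-5p, miR-125a-5p and miR-125b-5p. All 7 were higher in DFO and in VE than in CON on that scale, including miR-10b-5p, miR-100-5p and miR-125a-5p, which were lower in VE than in CON in CPM, and miR-10a-5p, miR-10b-5p, miR-99a-5p and miR-100-5p, which were lower in DFO than in CON in CPM.

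**Figure D4:**
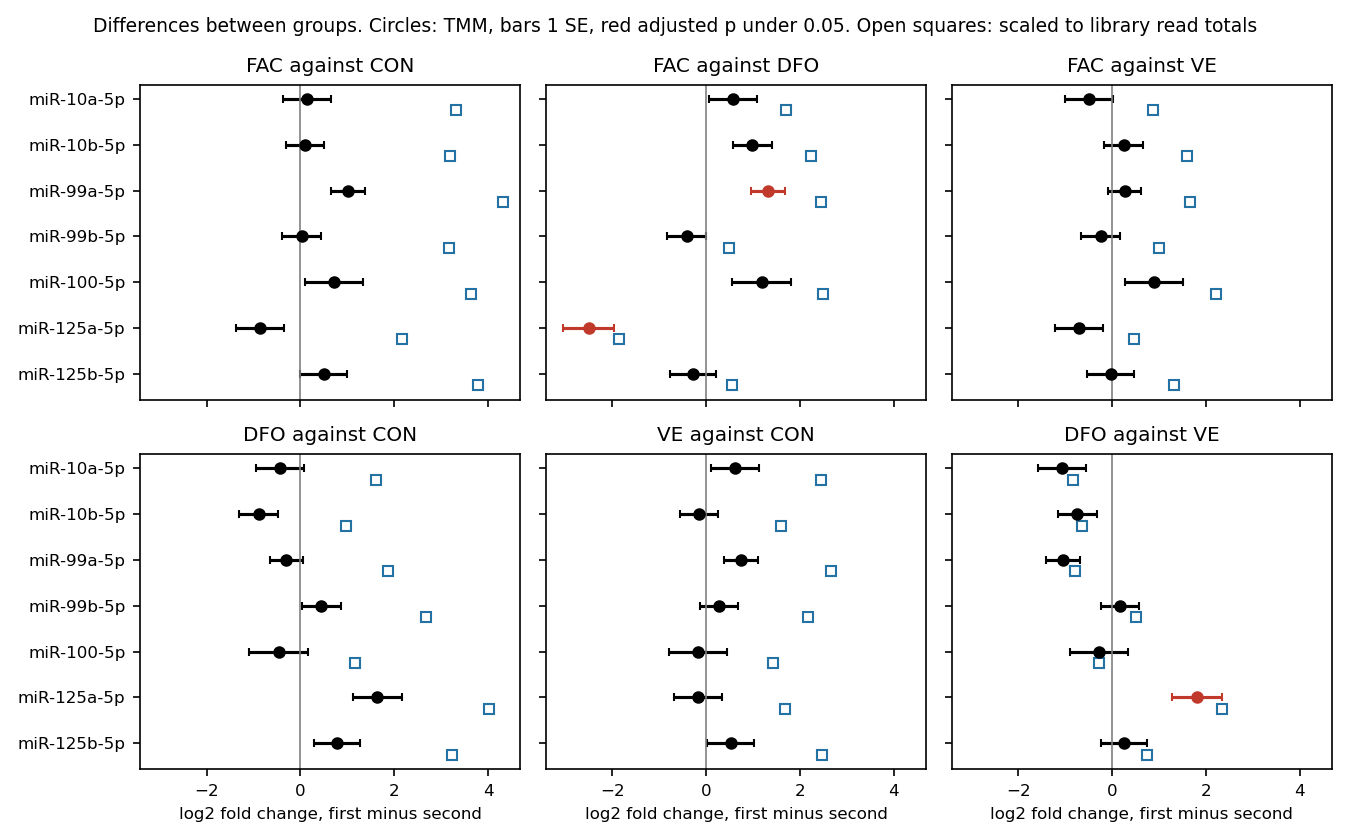
Log2 fold change (x axes, first group minus second) of each of the 7 miRNAs in 6 comparisons, as circles with bars of 1 standard error after TMM scaling (red where the adjusted p is under 0.05) and as open squares for library read totals as library sizes. In FAC against CON all 7 squares lie between 2.16 and 4.32, while the circles lie between -0.87 and 1.02.

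The spread of the ratio of 2 miRNAs over the 12 libraries shows how far they kept 1 proportion, free of the scaling of a library. The SD of the log2 ratio over the 12 libraries ranged from 0.40 for miR-10a-5p and miR-99a-5p to 1.72 for miR-100-5p and miR-125a-5p among the 21 pairs of the 7, with a median of 0.86. The median over all 5151 pairs of the 102 frequent entries was 1.47. These entries need only 10 counts in every library, whereas the 7 had at least 357. Low counts add counting noise to a ratio, so the 2 medians are not on equal terms. miR-10a-5p, miR-10b-5p and miR-99a-5p formed the closest set, at 0.40 to 0.51, although their genes lie on 3 chromosomes. A small SD of a ratio also arises where both miRNAs vary little. Within groups, the SD of log2 CPM was 0.16 for miR-10a-5p and 0.23 for miR-99a-5p. miR-125a-5p was 0.92 to 1.72 from the other 6. Points of 1 library share its depth and preparation, and no test was made.

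**Figure D5:**
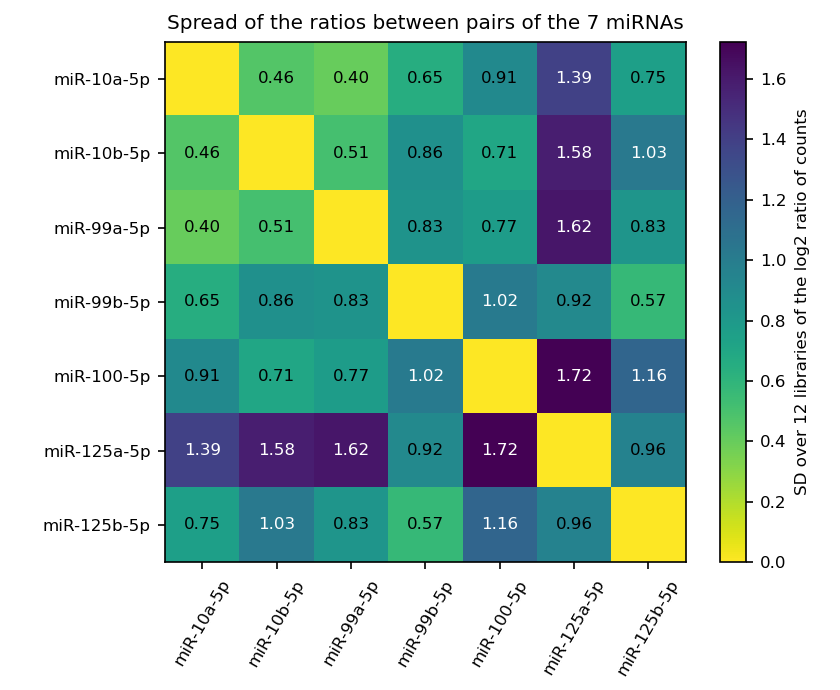
SD over the 12 libraries of the log2 ratio of counts for each pair of the 7 miRNAs (colour and printed value, rows and columns are miRNAs). Values are lowest among miR-10a-5p, miR-10b-5p and miR-99a-5p and highest in the row of miR-125a-5p, up to 1.72.

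Of the 101 other frequent entries, the 3 closest to miR-10a-5p by this measure were miR-99a-5p, miR-10b-5p and miR-128-3p (SD 0.40, 0.46 and 0.51). The 3 closest to miR-10b-5p were miR-26a-5p, miR-148b-3p and miR-10a-5p (0.42, 0.46 and 0.46), and to miR-99a-5p miR-10a-5p, miR-25-3p and miR-24-3p (0.40, 0.44 and 0.45). miR-99b-5p was closest to miR-125a-3p from its own cluster, miR-151-3p and miR-191-5p (0.43, 0.46 and 0.51), and miR-125b-5p to miR-125a-3p, miR-99b-5p and miR-191-5p (0.55, 0.57 and 0.65). miR-100-5p was closest to miR-25-3p, miR-532-5p and miR-191-5p (0.57, 0.66 and 0.66). miR-125a-5p was closest to let-7b-5p, let-7a-5p and let-7c-5p (0.64, 0.71 and 0.72), all of the let-7 family.

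Among the related entries, 0 of the 6 tested partner arms had an adjusted p under 0.05 in any pair of groups in edgeR after TMM scaling. The fold and unadjusted p threshold was passed by 1 to 2 in each comparison (7.68% to 12.2% of all entries) other than FAC against VE, with 0 (9.32%). DESeq2 called 1 in FAC against CON (3.84%) and 1 in FAC against DFO (7.86%). Of the 6 tested let-7 partners, let-7c-5p had an adjusted p under 0.05 after TMM scaling in FAC against DFO (0.914% of all entries) and in DFO against VE (1.46%). Both let-7c-5p (adjusted p = 0.00176 in edgeR) and let-7e-5p (adjusted p = 0.0229) had one among the 4 groups (4.57%). DESeq2 called 1 of the 6 in FAC against CON (3.84% of all entries), 5 in FAC against DFO (7.86%), 1 in VE against CON (3.47%) and 3 in DFO against VE (6.03%). let-7a-5p was at 4564 to 5710 CPM in CON, 2686 to 3495 CPM in FAC, 6517 to 14776 CPM in DFO and 1524 to 7402 CPM in VE, with a log2 fold change of -1.90 in FAC against DFO (standard error 0.55, adjusted p = 0.0531). Reads of the let-7 miRNAs can be hard to part. Of 5 tested miRNAs from the Hox clusters other than miR-10, 0 had an adjusted p under 0.05 in a pair of groups in edgeR after TMM scaling. Up to 2 had an unadjusted p under 0.05 (7.68% to 12.2% of all entries), and DESeq2 called 1 in FAC against CON (3.84%). The most abundant was mmu-miR-615-3p, at 5947, 6500 and 11613 CPM in CON and 889, 931 and 4954 CPM in FAC (log2 fold change -1.83, standard error 0.56, adjusted p = 0.0937 in edgeR), which became 1.17 with library read totals as library sizes. miR-351-5p, shown for the miR-125 seed it carries, held 0.0305% to 0.220% of the miRNA counts and had overlapping libraries in all 6 comparisons.
miR-351-5p: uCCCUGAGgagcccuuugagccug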

How the data were processed

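The authors sequenced small RNA from granulosa cell exosomes with read lengths of 15–41 bp. The authors deposited, for each of 12 libraries, raw counts for 637 miRNA entries and values named TPM, which are RPM since each count divided by its value gave 1 library read total. The processing notes of the submitters name mm9; the aligner and miRNA database are not given in the sources used here. No coordinates are printed. Counts were tested with edgeR 4.0.16's quasi-likelihood test (R 4.3.3, TMM, 1 fit of all 12 libraries, 547 entries with at least 10 counts in sum, Benjamini-Hochberg over these entries). limma 3.58.1 and DESeq2 1.42.0 were alternatives. The 95% intervals are normal intervals from the standard errors. Scripts were tested on simulated data. Counting error is small: 3 counts, the floor, are 0.397 to 6.64 CPM, and this covers counting error only. No pair of libraries agreed within sampling noise (smallest chi-square per degree of freedom 102). Named miRNAs are the 7, the let-7 guide arms, related entries with an adjusted p under 0.05 or most abundant in their list, and the 3 most alike by ratio. The arms miR-125a-3p, miR-99b-3p, let-7c-1-3p and miR-125b-2-3p were added after their values were seen. Members and lists were chosen with earlier results of these data known.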

Additional observations from a re-analysis of the deposited data

How the results depend on the processing

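Of 444 log2 fold changes of the 7 miRNAs recomputed under alternatives that kept all libraries, 384 kept their direction, 13 calls were lost and 44 were gained, 3 of them with the direction reversed. Where near-identical miRNAs were summed, the value of the sum was counted for each miRNA in it. Of the 60 that reversed, 42 came from scaling to all reads of a library, where the miRNA share of the reads enters the value. The cause of the other reversals and lost calls was not tested.

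Under counts scaled to library read totals, limma on log2(RPM + 1) and limma on log2(RPM + 0.1), in this order, the reversed log2 fold changes in FAC against CON were 2.16, 2.24 and 2.25 for miR-125a. In FAC against DFO they were 0.50, 0.78 and 0.78 for miR-99b and 0.56, 1.03 and 1.03 for miR-125b. In FAC against VE they were 0.87, 0.85 and 0.85 for miR-10a, 1.01, 0.98 and 0.98 for miR-99b, 0.48, 0.42 and 0.42 for miR-125a and 1.32, 1.23 and 1.23 for miR-125b. In DFO against CON they were 1.61, 1.59 and 1.59 for miR-10a, 0.97, 1.19 and 1.19 for miR-10b, 1.87, 1.73 and 1.73 for miR-99a and 1.16, 1.83 and 1.87 for miR-100. In VE against CON they were 1.60, 1.87 and 1.87 for miR-10b, 1.43, 2.13 and 2.16 for miR-100 and 1.68, 1.82 and 1.82 for miR-125a.

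Other reversals were small, except where a sum of near-identical miRNAs was set against miR-100. FAC against CON became -0.025 for miR-10a, -0.0035 for miR-10b and -0.20 for miR-99b with RLE size factors, and in DESeq2 -0.025, -0.0036 and -0.20. With the filterByExpr filter it became -0.077 for miR-10a, -0.14 for miR-10b and -0.11 for miR-99b, and with the replicate block -0.018 for miR-99b. FAC against VE for miR-125b became 0.068 with RLE size factors and in DESeq2, 0.14 in the compared groups only, 0.11 without a filter and 0.30 with total miRNA counts. With near-identical miRNAs summed, miR-10a and miR-10b together gave -0.052 in FAC against VE and 0.16 in VE against CON, opposite to miR-10b alone. miR-99a and miR-100 together gave 0.89 in VE against CON, opposite to miR-100 alone. miR-99a-5p outnumbered miR-100-5p by 16.8 to 111, so this sum is mostly miR-99a-5p and is no value of miR-100.

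Shares of all entries tested are given in parentheses, for scalings to all reads in the order above. An adjusted p under 0.05 was reached in FAC against CON by 7 of the 7 under each of the 3 scalings to all reads (16.3%, 20.8% and 22.3%) and by 1 with total miRNA counts (0.366%). In FAC against DFO, 1 reached it with RLE size factors (2.19%), the filterByExpr filter (1.92%), the compared groups only (1.93%) and limma on log2(RPM + 1) (3.29%). In DFO against CON 3 reached it under each scaling to all reads (3.11%, 2.19% and 3.47%), and in VE against CON 4, 2 and 4 (2.93%, 2.38% and 4.57%). In DFO against VE 2 reached it in DESeq2 (6.03%), and 0 did so with the filterByExpr filter (0.321%) and under each scaling to all reads (0% in each). Among the 4 groups, 1 reached it with RLE size factors (5.67%) and the filterByExpr filter (0.641%), and 7 under each scaling to all reads (14.3%, 16.5% and 17.4%). The fold and unadjusted p threshold was passed in FAC against CON by 2 with RLE size factors (11.2%), by 0 with the filterByExpr filter (11.5%) and by 7 under each scaling to all reads (29.1%, 35.6% and 35.1%), and in FAC against DFO by 5 with library read totals (13.7%). In FAC against VE, 1 passed in the compared groups only (13.3%) and 3 under each scaling to all reads (14.8%, 18.8% and 16.6%). In DFO against CON, 1 passed with the filterByExpr filter (9.94%) and 5, 6 and 6 under the scalings to all reads (17.0%, 15.4% and 16.1%). In VE against CON, 0 passed with RLE size factors (10.6%), the filterByExpr filter (11.5%) and DESeq2 (11.9%), and 6, 7 and 7 under the scalings to all reads (21.6%, 17.7% and 18.5%). In DFO against VE, 1 passed under each scaling to all reads (9.69%, 6.03% and 6.03%).

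No pairing of libraries by the replicate numbers of the labels was seen in the correlations of their deviations from the group means. Over 18 pairs of same-numbered libraries the mean correlation was -0.048 (lowest -0.39, 6 pairs above 0.1). Over 36 pairs with different numbers it was 0.028 (15 pairs above 0.1). Of the 12 libraries, 0 correlated best with its own number. Whether a number marks a shared batch was not tested. With the replicate block, 1 of the 7 had an adjusted p under 0.05 in FAC against DFO (0.548% of all entries), 0 in DFO against VE (1.097%) and 1 among the 4 groups (2.74%), and 1 passed the fold and unadjusted p threshold in DFO against CON (4.20%).

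With each library left out in turn, adjusted calls ranged from 0 to 1 in FAC against CON, from 0 to 3 in FAC against DFO, from 0 to 1 in DFO against VE and from 0 to 2 among the 4 groups. Calls at the fold threshold ranged from 1 to 2 in FAC against CON, 0 to 2 in FAC against VE, 1 to 3 in DFO against CON and 0 to 1 in VE against CON. The share of all entries called was not worked out for these fits. The ranges show only how the counts move with 1 library and cannot be set against the other entries. The log2 fold changes that reversed ranged from -0.087 to 0.42 for miR-10b and -0.46 to 0.26 for miR-99b in FAC against CON, -0.58 to 0.015 for miR-99b and -0.29 to 0.40 for miR-125b in FAC against VE, -0.93 to 0.16 for miR-100 in DFO against CON, and -0.47 to 0.17 for miR-10b and -0.65 to 0.45 for miR-100 in VE against CON. As a percentage of all reads of a library, the 7 miRNAs together held 0.518% in CON, 7.18% in FAC, 2.21% in DFO and 2.53% in VE. With 3 libraries a group and a biological coefficient of variation of 1.57 over all entries, differences well within the intervals given could not be detected.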
